A study of Mus musculus with 4 samples.

Results

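Among 31150 cells of mouse brain tumours, 5530 met a rule for a cell state that combined a mesenchymal-type set of transcripts with granule lineage transcripts. A cell was selected when it held at least 3 unique molecular identifiers (UMIs, 1 per captured transcript) summed over the markers Hmga2, Cavin1, Cav1 and Flnc. It also had to hold at least 1 UMI of Barhl1 or Zic1, which are transcription factor genes of the cerebellar granule lineage, and no UMI of Cldn5, Flt1, Pecam1, Dcn or Col1a1, which mark vessel and fibroblast cells. The cells were thus selected on the counts of these 11 genes, whose values are given as a description and support nothing here. The selected cells numbered 2165 in SG males, 238 in YSG males, 2728 in SG females and 399 in YSG females.

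The tumours are labelled MB by the submitters, and the study compared them with and without floxed Yap1 in each sex, under a title on sex differences in how Yap1 acts in immune evasion. All 4 groups carried SMO-M2, a Smoothened mutant that is always active and keeps Hedgehog signalling on, released by hGFAPcre, a Cre recombinase under the human GFAP promoter. SG had these alleles alone (fSMO-M2;hGFAPcre), and YSG had floxed Yap1 in addition (fYap1;fSMO-M2;hGFAPcre), described as rescued. All were taken at end point, and each group was 1 droplet library of dissociated tumour. The human GFAP promoter drives Cre in neural progenitors that give rise to neurons and glia, so recombination is not limited to granule cells. The sources used here do not give ages, the number of animals behind a library or the zygosity of floxed Yap1.

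Granule cell progenitors of the cerebellum divide in response to Sonic hedgehog and then leave the cell cycle, switch on Cntn2 and mature into granule neurons. Medulloblastomas of the SHH type arise from these progenitors. Caveolae are small pits of the plasma membrane built from caveolins (Cav1, Cav2) and cavins (Cavin1, Cavin2, Cavin3), and filamin C (Flnc) crosslinks actin in muscle. Hmga2 is a chromatin protein of embryonic cells, and YAP and its relative TAZ, the product of Wwtr1, are Hippo pathway coactivators that bind DNA through TEAD factors.

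The 4 libraries held between 58478914 and 86906706 UMIs, and 7193 to 8419 cells in each passed the quality filter. Where 4 values are set side by side, they stand in 1 order, SG then YSG in males followed by SG then YSG in females. With 1 library per group, nothing was tested, and all intervals are 95% intervals for counting error only. Yap1, the targeted gene, had 149 and 263 UMIs in the selected cells of SG males and females and 1 and 0 UMIs in those of YSG males and females. Counts from the 3' end of a transcript are blind to the exons it carries upstream. Genotype and sex cannot be told apart from the animal, its age or the capture run. Libraries shared 10 to 21 cell barcodes per pair, and 2 selected cells of SG males shared a barcode with selected cells of YSG females. In the selected cells, Xist and Ddx3y matched the sex labels. Xist was at 0.341 CPM (counts of a gene scaled to 1000000 UMIs) in male SG cells and 0.491 CPM in male YSG cells. It was at 2040 and 1999 CPM in the female libraries. Ddx3y, on the Y chromosome, had 213 CPM in male SG and 204 CPM in male YSG cells, and 0 UMIs in both female libraries.

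The marker genes lie on 3 chromosomes. In GRCm38 coordinates of the GENCODE M21 annotation, Hmga2 (ENSMUSG00000056758) spans chr10:120361275-120476469 on the minus strand and Cavin1 (ENSMUSG00000004044) chr11:100956733-100970887 on the minus strand. Cav1 (ENSMUSG00000007655) spans chr6:17306335-17341452 and Flnc (ENSMUSG00000068699) chr6:29433256-29461883, both on the plus strand. The start-site windows of the 4 genes are shown because their transcripts define the cells. Each holds 250 bases before and 50 bases after a start annotated by RefSeq on GRCm38.p6, written 5' to 3' on the gene's strand. The capitals mark CATTCC, the reverse complement of GGAATG, a core motif of TEAD factors.
Flnc, chr6:29432903-29433202, plus strand: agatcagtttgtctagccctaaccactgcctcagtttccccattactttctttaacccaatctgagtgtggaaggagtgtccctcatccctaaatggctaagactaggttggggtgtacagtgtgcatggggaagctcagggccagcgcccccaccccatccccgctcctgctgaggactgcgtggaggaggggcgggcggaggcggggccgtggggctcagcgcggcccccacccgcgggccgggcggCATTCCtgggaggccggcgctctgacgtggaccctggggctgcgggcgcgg
Cavin1, chr11:100970568-100970867, minus strand: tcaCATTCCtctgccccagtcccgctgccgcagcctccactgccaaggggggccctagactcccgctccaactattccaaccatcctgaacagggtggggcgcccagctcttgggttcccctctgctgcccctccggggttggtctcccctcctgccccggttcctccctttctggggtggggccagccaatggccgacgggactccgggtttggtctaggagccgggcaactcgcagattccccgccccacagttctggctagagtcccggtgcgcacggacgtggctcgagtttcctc
Cav1, chr6:17306085-17306384, plus strand: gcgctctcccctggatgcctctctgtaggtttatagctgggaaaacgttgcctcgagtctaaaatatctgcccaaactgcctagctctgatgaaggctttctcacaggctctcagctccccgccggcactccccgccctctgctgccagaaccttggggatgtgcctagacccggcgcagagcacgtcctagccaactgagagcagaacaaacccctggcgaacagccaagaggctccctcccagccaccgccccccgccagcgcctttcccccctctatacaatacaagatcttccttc
Hmga2, chr10:120476420-120476719, minus strand: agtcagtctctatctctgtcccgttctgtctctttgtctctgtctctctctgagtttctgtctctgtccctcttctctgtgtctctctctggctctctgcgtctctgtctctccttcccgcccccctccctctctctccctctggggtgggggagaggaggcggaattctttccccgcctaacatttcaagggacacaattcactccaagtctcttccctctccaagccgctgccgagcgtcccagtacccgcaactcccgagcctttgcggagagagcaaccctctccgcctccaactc
Searched on both strands, GGAATG was in the Flnc and Cavin1 windows and in neither the Cav1 nor the Hmga2 window, and 14.7% of all 32851 RefSeq windows of this length held it. The AP-1 motif TGANTCA was in none of the 4 windows, against 7.81% of all windows, and the GC box GGGCGG was in all 4, against 35.7%. A second annotated window gave the same for Flnc and Cavin1, and that of Cav1 held none of these motifs. A match describes letters in the window and does not show that a factor binds there.

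Selected cells were common in SG tumours and rare in YSG tumours. They made up 25.7% of SG male cells (exact interval 24.8 to 26.7) and 3.02% of YSG male cells (2.65 to 3.42). In females they made up 35.6% of SG cells (34.6 to 36.7) and 5.55% of YSG cells (5.03 to 6.10). The share in YSG was 0.117 times that in SG in males (0.102 to 0.134) and 0.156 times in females (0.140 to 0.173).

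A rule on UMIs favours deeply sequenced cells. Selected cells had a median of 12013, 14051, 14168 and 13223 UMIs in the 4 libraries, against 6197, 5872.5, 7419.5 and 6667 over all cells. When each cell was thinned to 5000 UMIs and shallower cells were left out, the rule took 843 of 5628 SG male cells (15%) and 54 of 4970 YSG male cells (1.09%). In females it took 1140 of 5979 SG cells (19.1%) and 103 of 5075 YSG cells (2.03%). Thinned shares in YSG were 0.0725 times those in SG in males and 0.106 times in females. The cells left out as too shallow numbered 2791, 2912, 1677 and 2118 in the order above.

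**Figure D1:**
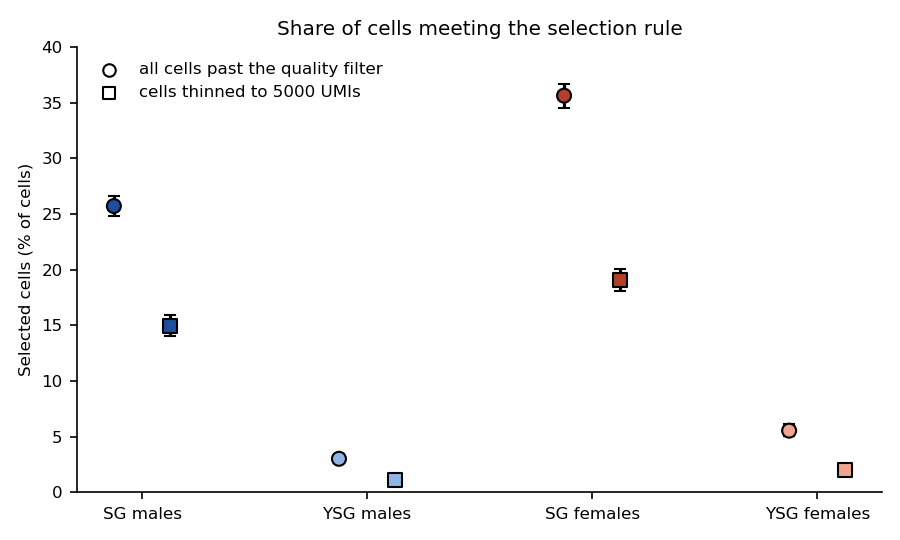
Share of cells that met the selection rule in each library, in % of cells, with exact 95% intervals for counting error. Circles are all cells past the quality filter and squares are cells thinned to 5000 UMIs. Both SG libraries lie above both YSG libraries on either measure (25.7% and 35.6% against 3.02% and 5.55% without thinning).

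The lineage gate removed 254, 8, 260 and 15 cells with enough marker UMIs, and the vessel and fibroblast gate removed a further 38, 7, 63 and 10. At the edge of the rule, 492, 131, 482 and 178 selected cells held exactly 3 marker UMIs, and 733, 318, 614 and 343 other cells that met the remaining conditions held exactly 2. The median marker sum of a selected cell was 5 in SG males, 3 in YSG males, 7 in SG females and 4 in YSG females, and the highest sums were 64, 15, 86 and 14. YSG selected cells therefore sat closer to the threshold than SG selected cells, which bears on each comparison of the genotypes.

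The same marker count was taken in other cell types, some of which, such as vessel cells, express Cav1 and Cavin1 themselves. Whether their marker UMIs were free transcripts or their own was not tested. None of 65 leukocytes held 3 marker UMIs, which allows a share of up to 5.52%, but their median depth was 1149 UMIs. Of 29 oligodendrocytes, at a median of 6212 UMIs, 3 did (10.3%), and of 31 vessel and fibroblast cells, at 4515 UMIs, 7 did (22.6%). The 3 oligodendrocytes came from SG males and YSG females, whose lineage-gated cells reached 3 UMIs in 28.9% and 5.94% of cases. By library, 2 of 8 oligodendrocytes of SG males (3.19% to 65.1%) and 0 of 4 of SG females (up to 60.2%) reached 3 UMIs. In YSG libraries 0 of 8 male oligodendrocytes (up to 36.9%) and 1 of 9 female ones (0.281% to 48.2%) did. In each library the interval includes the share among lineage-gated cells (28.9%, 3.23%, 39.8% and 5.94%), so with these few cells the shares of neither genotype could be told from that of oligodendrocytes.

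Flnc was the largest single contributor to the selection. It gave 48.7%, 47.0%, 46.4% and 50.9% of the marker UMIs of the selected cells in the 4 libraries, and Hmga2 gave 5.31%, 2.29%, 7.97% and 3.82%. Hmga2 transcripts were found in 471 of 2165, 13 of 238, 857 of 2728 and 34 of 399 selected cells. Without Flnc, 41.6%, 60.9%, 32.5% and 60.9% of the selected cells would have failed, and without Hmga2, 3.51%, 2.52%, 3.78% and 5.51%. Most selected cells had no captured Hmga2 transcript.

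The marker levels in the selected cells were a product of the rule and are given for scale. Flnc was at 239, 111, 230 and 145 CPM in the 4 libraries. Cavin1 was at 139, 53, 130 and 50.3 CPM, and Cav1 was at 86.7, 66.5, 95.5 and 78.4 CPM. Hmga2 was at 26, 5.40, 39.5 and 10.9 CPM. All 4 markers were present together in 228 SG male cells (10.5%) and 490 SG female cells (18.0%), and in 3 and 0 cells of YSG males and females. Barhl1, at 159, 196, 147 and 184 CPM, and Zic1, at 355, 580, 387 and 425 CPM, were found in most selected cells, Zic1 in 89.7%, 95.4%, 93.6% and 95.7% of them.

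Each marker was found more often in cells that held another marker than in cells that did not, in every library. Among granule lineage cells thinned to 5000 UMIs, Flnc was detected in 54.0% of Cavin1-positive and 30.1% of Cavin1-negative cells of SG males, and in 55.0% and 33.5% in SG females. In YSG males the values were 25.1% and 8.10%, and in YSG females 24.6% and 10.8%. For Cav1 among Cavin1-positive and Cavin1-negative cells they were 25.9% and 12.9% in SG males, 10.3% and 4.18% in YSG males, 28.4% and 15.7% in SG females, and 15.2% and 6.4% in YSG females. The YSG values for Hmga2 pairs rest on 2 to 9 cells.

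The label mesenchymal-like was borne out only in part. The transcription factors that define mesenchymal conversion were near 0 in the selected cells: Snai1 had 18, 1, 29 and 2 UMIs in all, Snai2 had 6, 2, 8 and 4, Twist1 had 41, 1, 48 and 0, Twist2 had 0 in each library, and Foxc2 had 1, 1, 2 and 0. Prrx1 was at 7.50, 4.17, 8.07 and 7.98 CPM. Zeb1, another such factor, was lower in selected than in depth-matched cells, with log2 ratios of -0.52, -0.29, -0.66 and -0.17. The 10 fibroblast markers outside the rule summed to 52.1, 78.0, 55.6 and 82.9 CPM, of which Pdgfra, also a gene of oligodendrocyte precursors, gave 23.3, 67.7, 24.0 and 64.5 CPM. Lum, Slc6a13 and Dpep1 had 0 to 3 UMIs per library. Collagen genes of fibroblasts were scarce, with Col1a2 at 1.27, 0, 0.844 and 0.798 CPM and Col3a1 at 11.7, 0.491, 11.2 and 3.99 CPM. The rule left out cells with Dcn or Col1a1 UMIs, so low fibroblast values were set in part by it and are a description. The cells are therefore called selected cells below.

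To describe the other genes, each selected cell was paired with a granule lineage cell of the same library that had no marker UMI and a total within 10% of its own. Pairs were found for 1318 selected cells of SG males (60.9%), 231 of YSG males (97.1%), 1320 of SG females (48.4%) and 385 of YSG females (96.5%). The deepest SG cells had no partner, so median depths of the paired SG cells were 8096 and 8111 UMIs in males and females, against 13567 and 12787 in YSG. Genes at 20 CPM or more on either side were compared, and a difference of 2-fold or more was counted. The log2 ratios were taken after adding 1 CPM to each side, and ratios with an interval come from the counts without it. The markers picked the cells, so these differences describe the cells and were not tested.

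In SG males 187 genes were at least 2-fold higher and 239 at least 2-fold lower in selected cells, 2.7% and 3.45% of 6919 genes and together 6.16%. In SG females the counts were 194 and 294, 2.75% and 4.17% of 7053 genes and together 6.92%. Of the genes measured in both, 158 were higher in both SG libraries, which was 85.4% of the male and 90.8% of the female list, and 225 were lower in both, 96.6% and 80.1% of the lists. In YSG males 61 genes were higher and 14 lower, 0.888% and 0.204% of 6873 genes and together 1.09%, and in YSG females 119 were higher and 51 lower, 1.69% and 0.726% of 7028 genes and together 2.42%. The median over all genes lay between -0.03 and -0.01 on the log2 scale in the 4 libraries.

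The 15 genes with the highest ratios in both SG libraries encode filament, adhesion, signalling and transcription proteins, among others. Desmin (Des), the intermediate filament of muscle, was at 31.7, 6.18, 40.3 and 8.89 CPM in paired selected cells of the 4 libraries. In the depth-matched cells it was at 2.38, 0.814, 2.96 and 0.534 CPM, a ratio of 13.3 in SG males (9.01 to 20.5) and 13.6 in SG females (9.63 to 19.9). Des was thus scarce in cells with no marker UMI in each library. It was less scarce in unselected cells with some marker UMIs. In thinned SG male cells it was at 14.0, 20.6 and 30.3 CPM with 1, 2 and 3 to 4 marker UMIs. In SG females it was at 23.8, 30.3 and 33.2 CPM. The YSG values of Des rest on 24 and 55 UMIs over all selected cells of males and females.

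Cd44, the hyaluronan receptor, was at 58.4, 44.3, 63.3 and 36.3 CPM in paired selected cells against 8.47, 8.14, 9.74 and 9.25 CPM in depth-matched cells. Its ratio was 6.89 in SG males (5.56 to 8.62), 5.45 in YSG males (3.67 to 8.33), 6.50 in SG females (5.32 to 7.99) and 3.92 in YSG females (2.88 to 5.42). The 4 depth-matched groups lay within 8.14 to 9.74 CPM, so the level in cells with no marker UMI was alike in the libraries.

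Runx1, a core-binding transcription factor best known from blood formation, was at 36.8, 11.8, 54.9 and 15 CPM against 7.24, 2.71, 7.48 and 2.67 CPM. Its ratio was 5.09 (4.02 to 6.53) in SG males, 4.36 (2.16 to 9.71) in YSG males, 7.34 (5.86 to 9.30) in SG females and 5.62 (3.23 to 10.5) in YSG females. Runx1 was detected in 26% and 36.8% of SG male and female selected cells, and in 11.8% and 13.5% of the YSG ones. Leukocytes also express Runx1, and 12 leukocyte markers summed to 0.992, 1.47, 0.903 and 1.76 CPM in the selected cells, with S100a8 and S100a9 at 0 UMIs in each library.

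Wwtr1, which encodes TAZ, was at 26.5, 15, 34.2 and 20.4 CPM in paired selected cells and at 5.12, 6.78, 6.96 and 8.18 CPM in depth-matched cells. The ratio was 5.19 (3.91 to 6.98) in SG males and 4.92 (3.87 to 6.33) in SG females, and 2.22 (1.36 to 3.71) and 2.49 (1.76 to 3.59) in YSG males and females. The paired cells of the genotypes differed in depth and in marker UMIs, and with 5 CPM added the log2 ratios in YSG were 0.77 in males and 0.95 in females, below 2-fold. In thinned cells with 3 to 4 marker UMIs, Wwtr1 was at 34.4 CPM (28.01 to 41.9) in SG males. It was at 12.8 CPM (2.63 to 37.3) in YSG males, and at 35.4 (29.6 to 42.0) and 19.5 CPM (8.42 to 38.4) in females. These intervals overlapped, with only 3 and 8 UMIs in YSG males and females. With 0 marker UMIs it was at 8.22 (6.65 to 10.1) and 5.69 CPM (4.70 to 6.83) in SG and YSG males. The female values with 0 marker UMIs were 10.4 (8.60 to 12.5) and 6.83 CPM (5.71 to 8.10), without overlap. Fosl1, an AP-1 subunit, was at 119, 46.5, 127 and 55.6 CPM against 22.4, 18.2, 18.6 and 12.3 CPM.

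The other genes of this group included Ets1, an ETS transcription factor, with log2 ratios of 2.76, 0.70, 2.85 and 1.95 in the 4 libraries. Plaur, the urokinase receptor, had log2 ratios of 2.22, 1.62, 2.22 and 2.56, and Klf5, a Krüppel-like factor, 2.26, 1.39, 2.14 and 1.19. Prss22, a serine protease, was at 2.36 and 2.41 in SG, 0.35 in YSG males and 2.63 in YSG females, and its count in YSG male selected cells was 10 UMIs. The others were Ahnak, Ildr2, Emp1, Mast4, Tec and Pde4b. Of their log2 ratios, that of Ildr2 in YSG males, at 0.89, was the single value below 1.

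**Figure D2:**
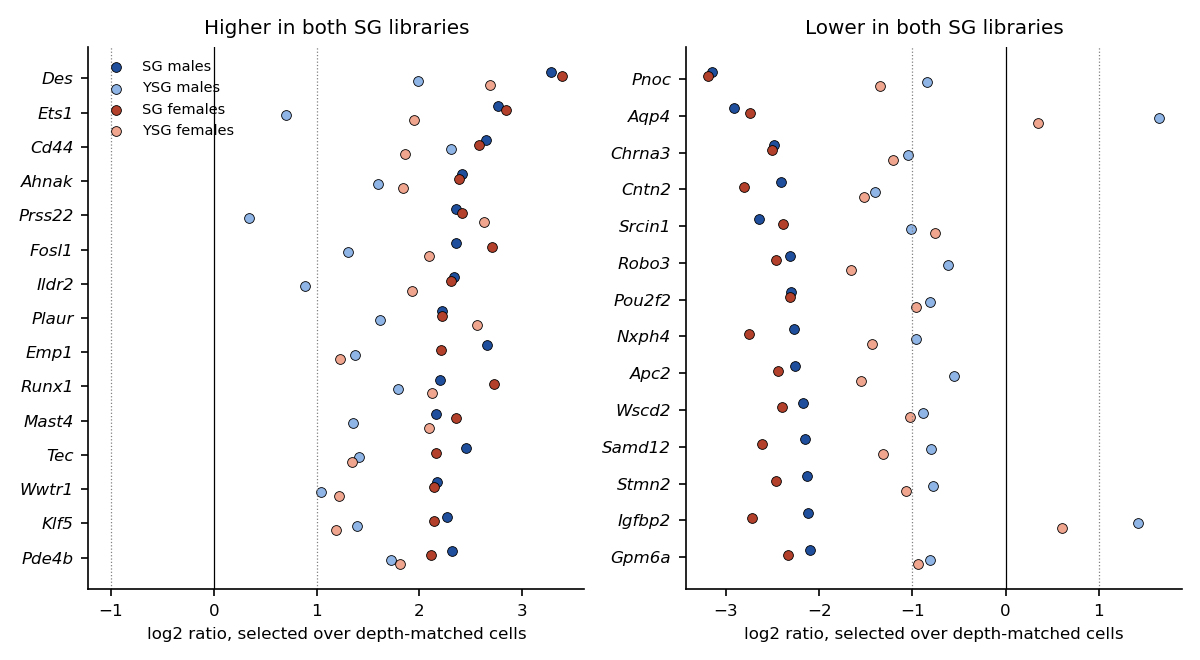
The log2 ratio of selected over depth-matched cells in the 4 libraries, for the 15 genes with the largest difference higher in both SG libraries (left) and 14 of the 15 lower in both (right). Each point is 1 library, with dotted lines at 2-fold. YSG points mostly lie nearer to 0 than SG points, and for Aqp4 and Igfbp2 they lie on the other side of 0.

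Genes of young neurons were the main group that was lower. Cntn2, an adhesion protein of granule cells that have just left the cell cycle, was at 54.0, 78.4, 47.1 and 74.5 CPM in paired selected cells. It was at 291, 209, 336 and 216 CPM in depth-matched cells, which gave ratios of 0.185 (0.170 to 0.202), 0.376 (0.327 to 0.431), 0.140 (0.128 to 0.153) and 0.345 (0.308 to 0.386). Stmn2, a microtubule regulator of growing axons, was at 131, 325, 104 and 360 CPM against 576, 560, 578 and 756 CPM. Both were lower in the selected cells of each library. The differences between these paired cells, which were not matched for marker UMIs across genotypes, were larger in SG.

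Robo3, an axon guidance receptor, had log2 ratios of -2.31 and -2.46 in SG males and females, and its YSG male value rests on 2 UMIs. Pnoc, the nociceptin precursor, was at -3.15 and -3.19 in SG and -0.84 and -1.35 in YSG males and females. Chrna3, a nicotinic receptor subunit, was at -2.49 and -2.51 in SG and -1.05 and -1.21 in YSG. Gpm6a, a neuronal membrane glycoprotein, was at -2.10 and -2.34 in SG and -0.82 and -0.93 in YSG.

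Aqp4 and Igfbp2, which are astroglial genes in the brain, stood among the lower genes in SG as well, with Aqp4 at -2.92 and -2.74 on the log2 scale. The summed level of 10 astroglial markers was lower too, at 452 and 423 CPM in paired selected cells of SG males and females. In their depth-matched cells it was 937 and 976 CPM. Not all went that way, as 1 of 7 measured markers was at least 2-fold higher in each SG library. The counts were 0 of 6 in YSG males and 3 of 5 in YSG females. In YSG males and females the sums were 586 and 420 CPM in selected and 467 and 359 CPM in depth-matched cells, and Aqp4 was at 1.65 and 0.35. Against all comparison cells instead of depth-matched ones, Aqp4 was at -1.49 in SG males and -0.95 in SG females. The part of astroglia among the comparison cells in these values was not tested.

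By gene list, granule differentiation stood furthest below the median of all genes. Of its 24 genes, 19 were measured in each SG library and 15 of these were at least 2-fold lower in both, none higher, with a median log2 ratio of -1.54 in the male and -1.66 in the female library. In YSG males 1 of 16 and in YSG females 5 of 20 were lower, with medians of -0.56 and -0.77. Neurod1, which drives granule neuron differentiation, was at 87.1, 164, 86.5 and 203 CPM against 245, 301, 260 and 403 CPM in depth-matched cells. Granule progenitor genes had medians of -0.66 and -0.75 in SG, with 3 of 13 lower in each, and -0.28 and -0.32 in YSG, with 1 of 12 and 1 of 13 lower.

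No proliferation gene differed by 2-fold from depth-matched cells in any library. Of 30 genes, 30, 29, 30 and 30 were measured in the 4 libraries, and the medians were -0.01, -0.10, 0.05 and -0.10. Mki67, a protein of dividing cells, was at 476, 515, 436 and 472 CPM in paired selected cells and at 449, 432, 387 and 473 CPM in depth-matched cells. Hedgehog pathway genes went both ways. Ptch1, the receptor and target of the pathway, had ratios of 1.60 (1.53 to 1.69), 1.5 (1.37 to 1.65), 1.52 (1.45 to 1.59) and 1.35 (1.25 to 1.46). Of this list, 2 of 12 genes in SG males and 1 of 12 in SG females were 2-fold higher, and Mycn and Nhlh1 were 2-fold lower in both.

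Genes of stem and glial progenitors were higher in part. In SG, 5 of 12 in males and 7 of 12 in females were at least 2-fold higher, and 2 and 3 were lower, with medians of 0.63 and 1.06. In YSG, 2 of 12 and 6 of 11 were higher and none lower, with medians of 0.67 and 1.02. Sox2, a stem cell factor, was at 73.3, 50.5, 83.1 and 48.3 CPM against 29.6, 21.2, 36.4 and 22.1 CPM, and Nes, the progenitor filament nestin, had log2 ratios of 1.30, 0.55, 1.46 and 1.03. The receptor gene Notch1 had log2 ratios of 1.72, 1.59, 1.54 and 1.52. Fabp7, a radial glia gene also held by astroglia, was at -1.61 and -1.50 in SG and at 0.38 and 1.02 in YSG.

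Among mesenchymal and EMT genes (EMT stands for epithelial-to-mesenchymal transition), 6 of 13 measured genes were 2-fold higher in each SG library, 2 of 11 in YSG males and 5 of 11 in YSG females, and none was lower. The medians were 0.84, 0.45, 0.79 and 0.49 in the 4 libraries. The list has 31 genes, of which 18 fell below 20 CPM in SG. Vimentin (Vim), a filament of progenitors as well as of mesenchyme, was at 560, 439, 618 and 394 CPM against 253, 219, 284 and 179 CPM. S100a6, a calcium-binding protein, was at 82.3, 34.4, 104 and 76.9 CPM against 25.6, 12.8, 24.8 and 14.6 CPM. Lgals1, which encodes galectin-1, had log2 ratios of 1.46, 0.74, 1.51 and 1.11.

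Extracellular matrix genes were 2-fold higher in 4 of 9, 2 of 7, 6 of 11 and 5 of 8 measured cases, and their medians were 0.60, 0.53, 1.29 and 1.06. Basement membrane collagens were among them. Col4a1 was at 219, 145, 291 and 103 CPM in paired selected cells against 45.4, 56.4, 74.7 and 40.2 CPM, and Col4a2, its partner chain, was at 59.3, 29.0, 81.1 and 27.2 CPM against 11.8, 15.2, 28.1 and 12.5 CPM. Tnc, which encodes tenascin C, had a ratio of 2.93 (2.13 to 4.08) in SG males and 12.2 (8 to 19.6) in SG females. Endothelial cells also make these collagens, and the 9 endothelial markers outside the rule summed to 4.59, 3.68, 4.46 and 3.19 CPM in the selected cells, with Tie1 at 0 UMIs in each library. The rule left out cells with Cldn5, Flt1 or Pecam1 UMIs, so a low sum was set in part by it.

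Actin and muscle cytoskeleton genes were 2-fold higher in 6 of 18, 1 of 15, 7 of 20 and 1 of 17 measured cases, none lower, with medians of 0.86, 0.39, 0.84 and 0.49. Vcl, which encodes the focal adhesion protein vinculin, was at 471, 236, 492 and 234 CPM against 183, 170, 197 and 153 CPM. Its ratio was 2.57 (2.45 to 2.71) and 2.50 (2.38 to 2.63) in SG and 1.39 (1.25 to 1.54) and 1.53 (1.41 to 1.67) in YSG. Tagln, a smooth muscle actin-binding protein, was at 14.0, 2.21, 17.3 and 2.56 CPM in all selected cells. Mural cells express Tagln too, and the 12 mural markers summed to 23.8, 12.4, 28.01 and 12.4 CPM in paired selected cells against 9.44, 5.43, 10.4 and 4.98 CPM in depth-matched cells. Their part in the actin and muscle values was not tested. Over all selected cells the sums were 21.4, 11.8, 27.4 and 12.6 CPM, with Pdgfrb at 2, 0, 1 and 0 UMIs and Myh11 at 3, 1, 4 and 0 UMIs.

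Of the 8 caveolar genes listed outside the rule, Cavin2, Cavin3, Cav2 and Pacsin2 reached 20 CPM in at least 1 library, and their ratios were above 1 in each. Cavin3 was at 80.0, 72.3, 84.6 and 80.0 CPM against 30.2, 38.3, 30.9 and 37.5 CPM. Cavin2 was at 359, 297, 391 and 413 CPM against 178, 197, 196 and 298 CPM, so its ratio was 2.01 and 2 in SG and 1.51 and 1.39 in YSG. The caveolar list had 3 of 3 measured genes past 2-fold in SG males, 1 of 4 in SG females, 0 of 2 in YSG males and 2 of 4 in YSG females.

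The YAP and TAZ target genes that reached 20 CPM did not stand out. Of 22 genes, 8, 9, 8 and 7 were measured, 1 was 2-fold higher (Dlc1 in SG females, at a log2 ratio of 1.24) and none lower, with medians of 0.23, -0.04, 0.21 and 0.20. In thinned SG male cells, the target Ccn1 was at 4.11 CPM (3.02 to 5.47) with 0 marker UMIs and 12.2 CPM (6.98 to 19.8) with 5 or more. In females it was at 5.35 (4.07 to 6.90) and 14.5 CPM (9.74 to 20.9). Ccn2, another target, had 1 and 0 UMIs in these classes of males and 11 and 4 in those of females. In the Hippo pathway list, Wwtr1 was the gene past 2-fold in 3 libraries, and the YSG male count of 0 of 9 left it out because it stayed below 20 CPM there. Tead1 and Tead2, which encode DNA partners of YAP and TAZ, had log2 ratios of 0.35, 0.15, 0.56 and 0.19 and of 0.56, 0.15, 0.61 and 0.43. In SG males and females the Yap1 ratio of paired selected over depth-matched cells was 2.89 (1.76 to 4.91) and 2.87 (1.73 to 4.94). As log2 ratios these were 1.17 and 1.14, which came to 0.61 and 0.58 with 5 CPM added, and to 0.95 in males against all comparison cells.

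**Figure D3:**
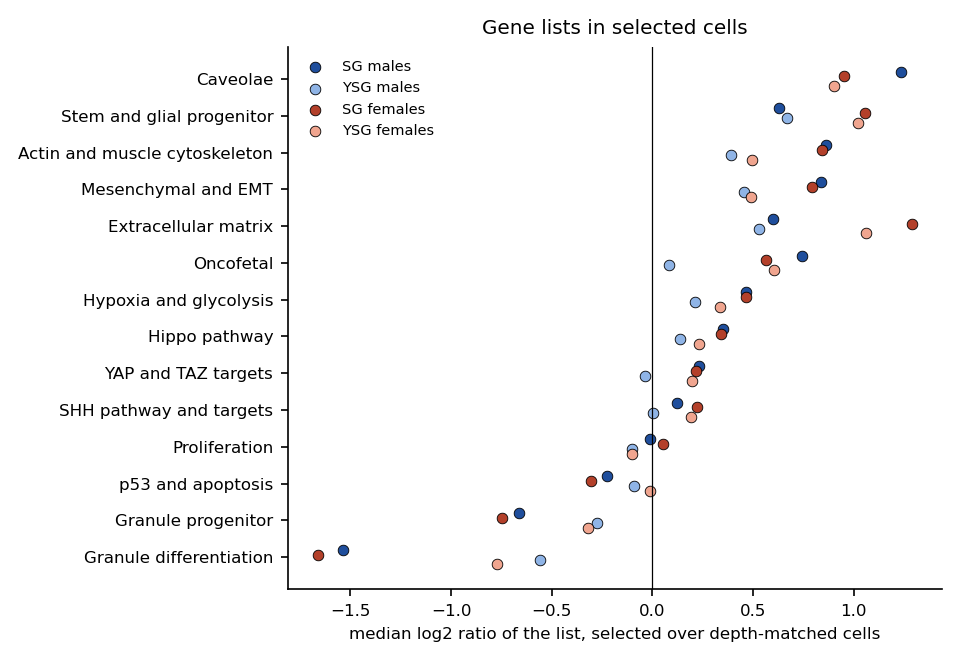
Median log2 ratio of selected over depth-matched cells for 14 gene lists, with 1 point per library. Only genes at 20 CPM or more on either side count, and no median is given for caveolar genes in YSG males, where 2 were measured. Granule differentiation lies furthest to the left (-1.54 and -1.66 in SG, -0.56 and -0.77 in YSG), and proliferation lies within 0.10 of 0.

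Remaining lists gave few differences. Hypoxia and glycolysis genes had medians of 0.46, 0.21, 0.46 and 0.34, with Ndrg1 as the 1 gene past 2-fold in SG males, SG females and YSG females. In the p53 list, Eda2r was the gene past 2-fold higher in SG, with ratios of 3.61 (3.07 to 4.25) and 4.26 (3.63 to 5.01) in males and females. Cdkn1a, a cell cycle inhibitor, was at 239, 243, 236 and 216 CPM against 148, 195, 153 and 184 CPM. Of the early response genes, Fos and Dusp1 were 2-fold lower in both SG libraries, Fos at -1.55 and -2.01. The TGF-beta receptor gene Tgfbr2 was at 29.0, 21.2, 30.6 and 27.9 CPM against 6.88, 11.1, 9.65 and 14.2 CPM. Class I antigen presentation was represented by H2-D1 and B2m, and neither was 2-fold different in any library.

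The oncofetal list, to which Hmga2 belongs in function, held 2 of 8, 1 of 4, 3 of 9 and 2 of 7 genes past 2-fold, none lower. Grb10, an imprinted growth adaptor, was at 102, 29.0, 113 and 20.4 CPM against 39.9, 8.95, 48.7 and 4.09 CPM, so it was higher in the selected cells of each library at levels that differed by genotype. Igf2, the fetal growth factor, was at 38.5 and 53.5 CPM against 13.9 and 25 CPM in SG. Lin28a had 0 UMIs in the selected cells of all libraries, and Lin28b had 1, 0, 11 and 4.

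Cells thinned to equal depth and ordered by marker UMIs showed how these genes change with the marker count. The classes of 0, 1, 2, 3 to 4 and at least 5 UMIs held 2286, 1145, 622, 581 and 262 cells in SG males and 2207, 1151, 719, 741 and 399 in SG females. In YSG they held 4040, 523, 143, 47 and 7 cells in males and 3866, 675, 160, 82 and 21 in females. Vim was at 288, 400, 487, 573 and 716 CPM across the classes of SG males and at 318, 427, 495, 633 and 764 CPM in SG females. In YSG males it was at 209, 332, 406 and 489 CPM over the first 4 classes, and in YSG females at 195, 292, 344 and 480 CPM. Each class was higher than the one before it, also below the threshold of 3 UMIs.

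Runx1 was at 7.96, 12.9, 23.8, 34.8 and 64.1 CPM across the classes of SG males and at 11.8, 26.1, 32.0, 39.7 and 89.7 CPM in SG females. In YSG males it was at 1.83, 6.50, 18.2 and 21.3 CPM over the first 4 classes, and in YSG females at 3.36, 7.70, 7.50 and 19.5 CPM. Cntn2 went the other way, from 246 to 30.5 CPM between the lowest and highest classes of SG males and from 283 to 23.6 CPM in SG females. In YSG it was at 174 and 250 CPM in cells with 0 marker UMIs and at 29.8 and 58.5 CPM in those with 3 to 4, in males and females. The YSG male value at 3 to 4 rests on 7 UMIs. In the same class of 3 to 4, Cntn2 was at 49.9 CPM in SG males and 40.2 CPM in SG females. Mki67 lay between 407 and 493 CPM over the 5 classes of SG males and between 381 and 430 CPM in SG females. In YSG males it was at 396 CPM (388 to 405) in cells with 0 marker UMIs and 272 CPM (210 to 348) in those with 3 to 4, and in YSG females at 280 (272 to 287) and 271 CPM (223 to 326). The proliferation list summed to 3685 and 1928 CPM in the same classes of YSG males and to 2601 and 2283 CPM in YSG females.

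Taken at equal marker counts, some genotype differences were smaller than among all selected cells and others were not. In the class of 3 to 4 UMIs, Vim was at 573 CPM in SG males and 489 CPM in YSG males. Runx1 was at 34.8 and 21.3 CPM there, the latter from 5 UMIs. In females Vim was at 633 and 480 CPM and Runx1 at 39.7 and 19.5 CPM. The difference in Wwtr1 was not smaller, at 34.4 and 12.8 CPM in males, the latter from 3 UMIs. Pdlim3, a muscle PDZ and LIM protein, differed at each count: it was at 74.3, 99.6, 123, 158 and 161 CPM across the SG male classes and at 1.39, 1.91, 4.2 and 0 CPM in the first 4 of YSG males. Mndal, a member of a family of interferon-induced DNA sensors, had 0 UMIs in cells with no marker UMI in both SG libraries. It was at 44.8, 62.0, 65.7 and 76.6 CPM over the first 4 classes of YSG males and at 85.2, 110, 128 and 185 CPM in YSG females.

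**Figure D4:**
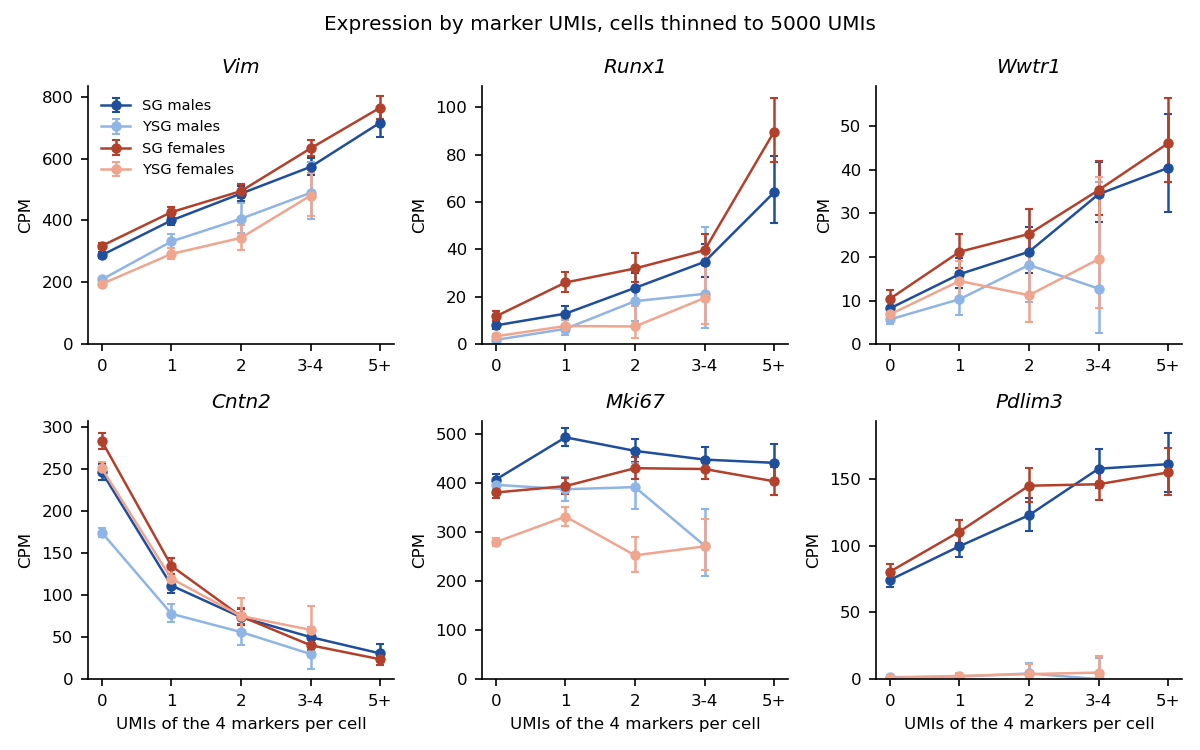
Levels in CPM of 6 genes by the number of marker UMIs per cell (0, 1, 2, 3 to 4, 5 or more), in granule lineage cells thinned to 5000 UMIs, with exact 95% Poisson intervals. The class of 5 or more is left out for YSG, where it held 7 and 21 cells. Vim and Runx1 are higher and Cntn2 lower at higher counts, Mki67 is nearly level in SG, and Pdlim3 stays at or below 4.88 CPM in YSG.

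The selected cells differed among themselves by which marker led. Flnc alone led in 51.4% and 51.3% of SG male and female cells, Cavin1 in 21.2% and 19.5%, Cav1 in 10.6% and 10.3%, and Hmga2 in 2.49% and 4.4%. Stmn2 was alike in these groups, at 142 to 167 CPM in SG males and 129 to 151 CPM in SG females. Runx1 differed, at 9.94 CPM (6 UMIs) in Hmga2-led and 35.4 CPM in Flnc-led SG male cells. In SG females it was at 25.9 and 55.1 CPM. Wwtr1 was at 54.7 and 27.9 CPM in Hmga2-led and Flnc-led cells of SG males, and at 36.7 and 32.7 CPM in SG females. Markers tied for the lead in 14.3% of SG male and 14.5% of SG female cells. In SG females, Cav1-led cells had Vim at 680 CPM and Cd44 at 81.3 CPM, and Cavin1-led cells had 558 and 47.2 CPM. SG males differed less, with Vim at 590 and 533 CPM and Cd44 at 54.6 and 41.8 CPM, and in YSG females Cd44 was at 26.4 CPM in Cav1-led and 30.7 CPM in Cavin1-led cells. In YSG, Cav1 led in 23.1% and 23.8% of male and female cells.

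The rare YSG selected cells shared part of the SG pattern. Of the 15 genes highest in SG, 12 in YSG males and 15 in YSG females were above 2-fold, the exceptions being Ets1, Prss22 and Ildr2 in males. At 20 CPM or more, where the background was 0.888% and 1.69% of genes higher, 8 of 9 in YSG males and 10 of 10 in YSG females were above 2-fold. Des, Runx1 and Tec lay below 20 CPM in both YSG libraries, and Wwtr1 did in males and was below 2-fold in both with 5 CPM added. Higher in both YSG libraries were 35 genes, 72.9% of the male and 43.2% of the female list of genes measured in both. Lower in both were 5 genes, 45.5% of the male and 12.2% of the female list. Among paired cells, the differentiation genes were lower by less than in SG, as given above.

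Set against SG selected cells directly, YSG male selected cells had 116 genes at least 2-fold higher and 77 lower, 1.69% and 1.12% of 6867 genes and together 2.81%. In females 92 were higher and 63 lower, 1.32% and 0.902% of 6985 genes and together 2.22%. Of the genes measured in both sexes, 38 were higher in both and 34 lower in both, and 4 differed in opposite directions. In depth-matched cells with no marker UMI, 60 genes were higher and 70 lower in YSG males, 0.87% and 1.01% of 6897 genes and together 1.88%. In females 60 were higher and 93 lower, 0.852% and 1.32% of 7046 genes and together 2.17%. The genes named next are given with a value in depth-matched or thinned cells with no marker UMI, other than Trf and Gm16867. Whether any of them differs more in selected cells was not tested.

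Several of the largest genotype differences were of similar size in comparison cells. Pdlim3 was at 143 and 153 CPM in SG male and female selected cells and at 2.70 and 2.08 CPM in YSG, which gave log2 ratios of -5.28 (males) and -5.65 (females), and of -5.04 and -5.33 in comparison cells. Mndal had 6, 249, 3 and 848 UMIs in the selected cells of the 4 libraries, and log2 ratios of 5.71 and 7.01, against 5.27 and 6.42 in comparison cells. Igf2bp1, an RNA-binding protein of embryonic cells, was at 29.3, 0.491, 29.2 and 2.24 CPM. Otx1, a homeobox gene of the brain, was at 8.99, 54.2, 8.74 and 50.8 CPM. In thinned cells with 0 marker UMIs, Igf2bp1 was at 18.5, 0.495, 20.8 and 0.879 CPM. Otx1 was at 12.7, 56.7, 12.9 and 77.5 CPM in those cells.

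Some genes that were lower in YSG were scarce in the comparison cells. Inhba, which encodes the activin A subunit, was at 9.80, 0, 9.60 and 0.639 CPM in the selected cells, with 316, 0, 489 and 4 UMIs. In comparison cells it had 11, 0, 10 and 1 UMIs, too few to set the genotypes against each other there. Tpm2, a muscle tropomyosin, had log2 ratios of -2.52 and -2.82 in selected cells and of -0.93 and -2.26 in comparison cells. Slc6a2, the noradrenaline transporter, was at 4.25, 0, 6.4 and 0.319 CPM in selected cells and at 2.47, 0.271, 3.04 and 1.25 CPM in comparison cells. Inhba was detected in 6.51% and 7.81% of SG male and female selected cells.

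Myt1l, a neuronal transcription factor, was at 11.4, 71.4, 8.26 and 58.1 CPM in the selected cells, with log2 ratios of 2.54 and 2.67, against 1.30 and 1.75 in comparison cells. Trf, which encodes transferrin and is made by oligodendrocytes in the brain, was at 2.08, 38.0, 1.71 and 17.6 CPM. In the same cells 9 oligodendrocyte markers summed to 46.0, 86.6, 39.5 and 62.8 CPM. Over the paired selected cells alone the sums were 50.8, 56.7, 29.7 and 65.6 CPM, so the male libraries lay closer there. The part of oligodendrocyte transcripts in the Trf value was not tested. Gm16867, a predicted gene, had 20 and 22 UMIs in YSG males and females and 0 in both SG libraries.

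**Figure D5:**
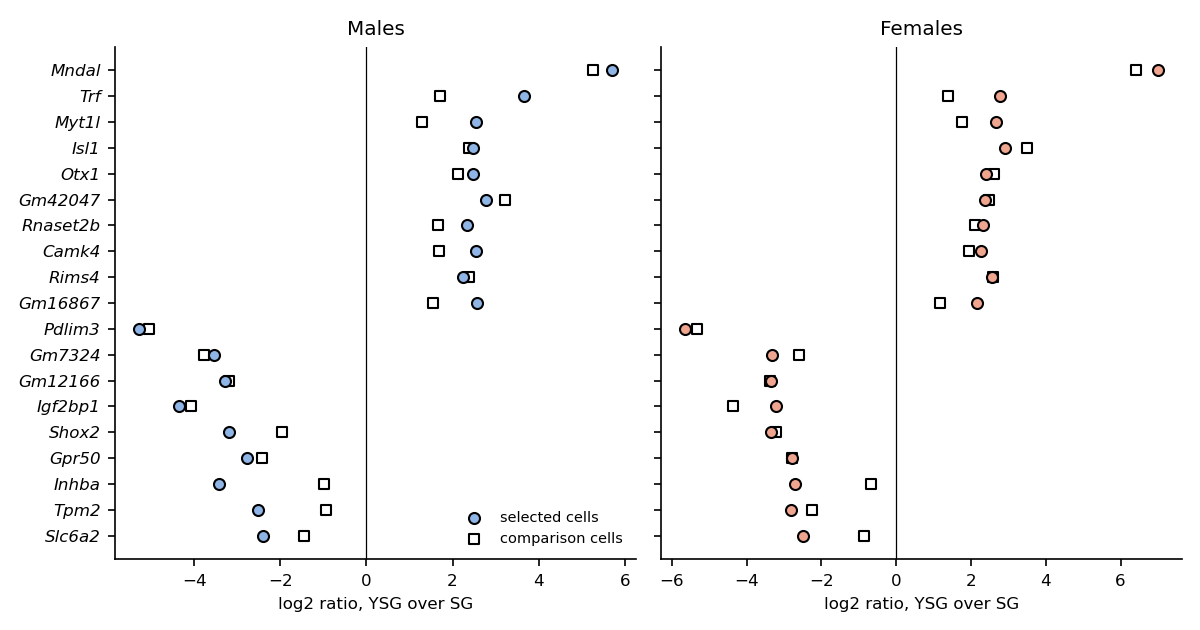
The log2 ratio of YSG over SG for the 10 genes highest and 9 of the 10 lowest in YSG selected cells of both sexes. Circles are selected cells and open squares are depth-matched comparison cells. Both symbols of each gene lie on the same side of 0. For Inhba the comparison cells of SG held under 1 CPM (0.971 and 0.869), so with 1 CPM added their ratio could not lie far from 0.

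By list, 3 of 16 granule differentiation genes in males and 3 of 17 in females were at least 2-fold higher in YSG than in SG selected cells, none lower, and the medians were 0.60 and 0.63. Mesenchymal and EMT genes had medians of -0.27 and -0.47, with 4 of 13 and 1 of 13 at least 2-fold lower, and extracellular matrix genes -0.56 and -0.58, with 2 of 8 and 5 of 11 lower. Proliferation genes had medians of -0.32 and -0.22, none past 2-fold. The list of YSG tumour genes was drawn up from earlier results of these libraries, and its 9 of 9 and 11 of 11 measured genes above 2-fold are no independent evidence. When selected cells of each sex were paired across genotypes by depth, in 238 and 397 pairs, none of the 44 log2 ratios recomputed changed sign, and that of Wwtr1 in males went from -0.96 to -1.45.

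Doublets can bring transcripts of 2 cell types together. Of the selected cells, 11.2%, 9.66%, 9.49% and 13.0% in the 4 libraries were in the top Scrublet scores, against 4.85%, 5.30%, 4.94% and 5.12% of all cells. Among the depth-matched pairs the shares were 4.55%, 9.09%, 3.64% and 12.7% for selected cells and 3.64%, 19.9%, 1.82% and 17.7% for their partners. Removing the top scores changed the sign of none of the 110 log2 ratios recomputed for the genes with the largest differences. The median mitochondrial share of selected cells was 3.94%, 3.82%, 4.27% and 4.11%, against 3.86%, 3.76%, 4.2% and 4.23% over all cells.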

How the data were processed

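The deposited values are raw UMI counts per gene and cell barcode, made with Cell Ranger 5.0.1 per the file headers, on mm10 per the submitters' processing notes. Each of the 4 groups was 1 library, so no test was run. Cells with at least 500 UMIs, at least 300 genes and at most 20% mitochondrial UMIs were kept. Counts were summed over cells and scaled to 1000000 UMIs of the sum (CPM), and genes at 20 CPM or more on either side were compared after adding 1 CPM. Comparison cells met the lineage and exclusion gates with 0 marker UMIs and were paired within 10% of a selected cell's total. Intervals are Clopper-Pearson for shares, exact Poisson for sums and conditional binomial for ratios, at 95%, and cover counting error only. Scrublet's own threshold called 0 doublets, so removal of cells scoring above the cutoff for the top 6% was an alternative. Cells tied at the cutoff stayed, so 4.85% to 5.30% of cells were removed.

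Named genes were the 15 highest and 15 lowest over depth-matched cells in both SG libraries, the 10 highest and 10 lowest in YSG over SG with at least 20 UMIs on the higher side, the rule genes and members of the gene lists. Of these, 2 are not reported here. The selected cells and lists were chosen with earlier results of these data known. Code was tested on simulated data. Gene positions are from GENCODE M21 and start-site windows from RefSeq. Python 3.11.15, numpy 2.4.6, scipy 1.17.1, pandas 2.3.3, scanpy 1.11.5 and matplotlib 3.10.9 were used.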

Additional observations from a re-analysis of the deposited data

Results flagged for a closer look

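In the selected cells, 4 genes differed between the genotypes in opposite directions in males and females, and this difference between the sexes was not tested. Hist1h2ap, a histone gene, had a log2 ratio of YSG over SG of 2.53 in males and -1.96 in females, and Gm10076, a predicted gene, 1.79 and -1.12. Mid1, a ubiquitin ligase gene on the X chromosome, had ratios of 2.48 in males and -2.87 in females, and Gm47283, a predicted gene annotated on the Y chromosome, 1.54 and -1.41. SG males lay near YSG females and YSG males near SG females for each: Mid1 was at 6.73 CPM in SG and 42.0 CPM in YSG in males, and at 40.05 and 4.63 CPM in females. Gm47283 was at 119 and 347 CPM in males and 266 and 99.7 CPM in females, so unlike Ddx3y it was counted in both sexes. The depth-matched comparison cells had the same directions, with Mid1 at 2.51 and -3.04.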

How the results depend on the processing

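No paired analysis was possible because each group was 1 library and no result came from a test. The share of selected cells in YSG relative to SG was 0.205 in males and 0.236 in females with 2 or more marker UMIs, 0.0479 and 0.0747 with 5 or more, and 0.0725 and 0.106 in cells thinned to 5000 UMIs. It stayed below 1 in each. With a minimum of 50 CPM, genes past 2-fold over depth-matched cells numbered 216 (SG) and 24 (YSG) in males and 256 (SG) and 70 (YSG) in females, and those in YSG over SG selected cells 81 in males and 65 in females. The YSG male count was 49 with 5 CPM added and 113 without the top Scrublet scores. Against all comparison cells, 52.0% of the calls in YSG females were higher, in place of 70.0%. The alternatives were run on 110 log2 ratios of the genes with the largest differences and not on every list gene, and none of these changed sign. Sizes were less stable. The largest shift on the log2 scale was 2.21 with 5 CPM added and 1.79 against all comparison cells. Mndal in YSG over SG selected cells came to 3.67 in males and 4.79 in females with 5 CPM added. Des over depth-matched cells in SG males went from 3.27 to 2.31. With 5 CPM added, 8 of the 110 came below 2-fold: Yap1 in both SG libraries and in YSG over SG males, Wwtr1 in both YSG libraries, Gm16867 in both sexes and Slc6a2 in males. The log2 ratios of Yap1 in SG males (0.95) and Aqp4 in SG females (-0.95) dropped below 2-fold against all comparison cells. Centring on the median and pairing selected cells across genotypes by depth were added after seeing the data. Counts near 0 in the YSG cells limit what can be said of single genes there.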
